A study of Caenorhabditis elegans with 2 samples.

Results

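NHR-76 chromatin immunoprecipitation and sequencing (ChIP-seq) in L1 larvae of Caenorhabditis elegans placed part of its strongest signal in autosomal DNA far from any gene start, and 594 such regions are described here. They were chosen from the 5000 strongest of the 30000 regions in the pooled list. The 234 regions overlapping a tRNA, snoRNA or snRNA gene were dropped, which left 4766, of which 3871 were autosomal. The middle of 2111 of these, called the summit, lay over 1 kb from every protein-coding 5' end, and 668 of the 2111 were outside protein-coding genes. A further 74 lay in exons of other genes, which left the 594 distal regions. The pooled signal and the position chose them, so neither is a finding.

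The study holds 2 libraries of 1 group, so nothing is compared between conditions. Both came from whole L1 larvae of mixed sex of the transgenic strain OP203, with the genotype unc-119(ed3) III; wgIs203. The animals carry NHR-76 fused at its C-terminus to a GFP-FLAG tag, and the antibody field of the labels names nhr-76. What drives the transgene, and the tissues that express it, are not given in the labels, and no untagged strain was analysed here. The labels give the libraries as biological replicates 1 and 2, with no word on separate cultures, so the spread between them may be technical. The number of reads behind each region is unknown, and every interval below is a 95% Wilson interval that covers counting error only.

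NHR-76 is a nuclear hormone receptor, one of a large nematode family of transcription factors that bind DNA through zinc fingers, and in the intestine it is known for a part in serotonin-driven fat loss. Nuclear receptors typically contact short half-sites such as AGGTCA. Worm genes are closely packed, and most of their regulatory DNA lies near gene starts, so a region over 1 kb from any annotated start is a candidate for an enhancer, for an unannotated start, or for signal at open chromatin that does not depend on the tagged protein. These lists do not tell such cases apart.

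Sequences of 10 regions are shown first because the words they carry recur through the results. They are the 150 bp around the summit on the plus strand of ce11, the same assembly as WBcel235, from the RefSeq copy of the genome. All but the last are among the 12 strongest distinct regions. Capitals mark any of 8 words on either strand. The first is GAGAGA, which reads TCTCTC on the opposite strand, and another is GAGACGCAG, which reads CTGCGTCTC there. The receptor half-sites are AGGTCA and, as a variant, AGTTCA. The GATA factors read TGATAA, the GC box is GGGCGG, the E-box is CACGTG, and the cyclic AMP response element, or CRE, is TGACGTCA. Adjoining capitals can be overlapping copies.
T04C4.3 region, rank 72, chrIV:2219564-2219713: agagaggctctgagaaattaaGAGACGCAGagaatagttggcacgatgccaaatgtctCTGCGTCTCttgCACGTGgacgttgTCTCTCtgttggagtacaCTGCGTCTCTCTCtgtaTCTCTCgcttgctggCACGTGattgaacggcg
irld-18 region, rank 85, chrIV:14594339-14594488: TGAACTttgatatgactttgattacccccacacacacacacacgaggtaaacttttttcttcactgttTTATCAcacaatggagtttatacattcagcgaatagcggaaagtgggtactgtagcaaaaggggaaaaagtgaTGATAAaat
Y105C5A.1 region, rank 90, chrIV:15570892-15571041: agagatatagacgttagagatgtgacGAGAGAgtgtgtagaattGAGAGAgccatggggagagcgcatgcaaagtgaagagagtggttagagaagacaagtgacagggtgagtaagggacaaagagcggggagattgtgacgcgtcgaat
F54F12.1 region, rank 103, chrIII:13062554-13062703: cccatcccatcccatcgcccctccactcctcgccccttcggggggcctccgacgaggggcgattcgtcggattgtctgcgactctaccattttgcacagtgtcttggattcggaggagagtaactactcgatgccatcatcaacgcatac
nhr-88 region, rank 104, chrII:2973996-2974145: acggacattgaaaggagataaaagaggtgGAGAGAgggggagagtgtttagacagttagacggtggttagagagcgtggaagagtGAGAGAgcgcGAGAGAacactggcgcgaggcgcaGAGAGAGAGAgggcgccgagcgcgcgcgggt
W09D10.4 region, rank 121, chrIII:10720321-10720470: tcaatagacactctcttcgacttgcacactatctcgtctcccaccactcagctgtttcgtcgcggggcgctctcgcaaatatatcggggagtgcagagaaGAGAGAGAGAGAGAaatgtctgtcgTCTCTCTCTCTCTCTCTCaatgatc
F54F12.1 other region, rank 122, chrIII:13061214-13061363: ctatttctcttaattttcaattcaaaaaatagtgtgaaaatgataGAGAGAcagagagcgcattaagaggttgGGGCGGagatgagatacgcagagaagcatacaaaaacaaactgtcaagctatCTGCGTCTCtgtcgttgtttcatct
din-1 region, rank 123, chrII:11635917-11636066: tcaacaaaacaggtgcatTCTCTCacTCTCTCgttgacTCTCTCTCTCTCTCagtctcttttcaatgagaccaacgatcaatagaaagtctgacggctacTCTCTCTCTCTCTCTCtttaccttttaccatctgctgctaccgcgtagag
pan-1 region, rank 143, chrIII:4560429-4560578: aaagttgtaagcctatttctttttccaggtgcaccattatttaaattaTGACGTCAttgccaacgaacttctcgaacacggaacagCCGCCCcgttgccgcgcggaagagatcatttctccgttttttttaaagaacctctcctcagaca
affl-2 region, rank 1229, chrIII:432991-433140: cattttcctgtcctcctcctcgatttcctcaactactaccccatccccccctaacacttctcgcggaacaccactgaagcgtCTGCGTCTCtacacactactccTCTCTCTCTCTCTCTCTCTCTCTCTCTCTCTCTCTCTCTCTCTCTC

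These lines show unlike sequences under like signal. The irld-18 region held no GAGAGA but a GATA word on each strand, the pan-1 region held a CRE, and the F54F12.1 region of rank 103 held none of the 8 words in its middle 150 bp. Outside the printed stretch, the pan-1 region also held 1 GAGAGA. Over its full width the F54F12.1 region of rank 103 held 2 GAGAGA and the word GAGACGCAG. The T04C4.3, nhr-88, W09D10.4 and din-1 regions were rich in GA and CT repeats. The affl-2 region was added because it held the longest such repeat, an unbroken 53 bp, and the most GAGAGA matches of all 594, with 25 in its 324 bp.

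The strongest distal region lay at chrIV:2219477-2219800, between T04C4.3 and fnip-2, which are transcribed away from each other. Its summit was 2783 bp upstream of T04C4.3 and 3189 bp from fnip-2, a relative of the folliculin-interacting proteins. The pooled signal was 49.9 in the caller's units. To set the libraries side by side, each signal was divided by the median listed region of its library, and this region stood at 4.07 times that median in replicate 1 and 3.28 times in replicate 2 (mean 3.67 ± 0.56, SD, n = 2). Its GC content was 52.8%, and it held 22 matches of GAGAGA and 2 of CACGTG.

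The region of rank 85 lay in a gap of 35563 bp, 13375 bp upstream of irld-18, a member of the insulin and EGF receptor L-domain family, and 22189 bp from dmd-6, of the DM-domain family. It stood at 4.302 times the median in replicate 1 and 2.98 times in replicate 2. At rank 90, the region between Y105C5A.1 and pqn-76, which encodes a protein rich in glutamine and asparagine, stood at 2.74 and 3.89 times. The din-1 region stood at 3.805 and 2.73 times, 2383 bp upstream of din-1, the gene of a corepressor partner of the nuclear receptor DAF-12. For each of these the libraries both put the region well above their median, and the order of the libraries differed from region to region.

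For 2 of the strongest regions a single library decided the signal. The nhr-88 region, 2568 bp upstream of another nuclear receptor gene, stood at 0.82 times the median in replicate 1 and 4.15 times in replicate 2. The F54F12.1 region of rank 103 stood at 5.74 times in replicate 1, the highest value of any distal region there, and no region of replicate 2 overlapped it. The list of replicate 2 ends at 0.715 times its median, so its value there is below that or was not listed for another reason. Its neighbour at rank 122, in the same gap, was listed in both libraries at 2.15 and 4.26 times the median.

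Of the 594 distal regions, 20 were in the deposited thresholded list, which was made with the irreproducible discovery rate (IDR). That is 3.37% (2.19 to 5.14), beside 4.96% of all 5000. Because IDR ranks on the same signal as the rule, this share is a description. Beside those named, the nearest genes were ptp-5.1, a protein tyrosine phosphatase, nhr-46, nlp-40, a neuropeptide gene of the intestine that paces defecation, mfb-1, gpb-1, a G protein beta subunit, F40E3.3, sup-26, an RNA-binding protein, unc-64, the worm syntaxin of synaptic release, F58D12.3 and rhy-1, which restrains the hypoxia response. In 19 of the 20 both libraries listed the region, and in 17 both gave it a q-value of 0.05 or less. The rhy-1 region, of rank 248, stood at 2.165 and 2.43 times the median, and the unc-64 region at 2.51 and 2.35 times. On the older build ce10, 18 of the 20 were also in the thresholded list; the F58D12.3 and rhy-1 regions, the weakest of the 20, were not.

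**Figure D1:**
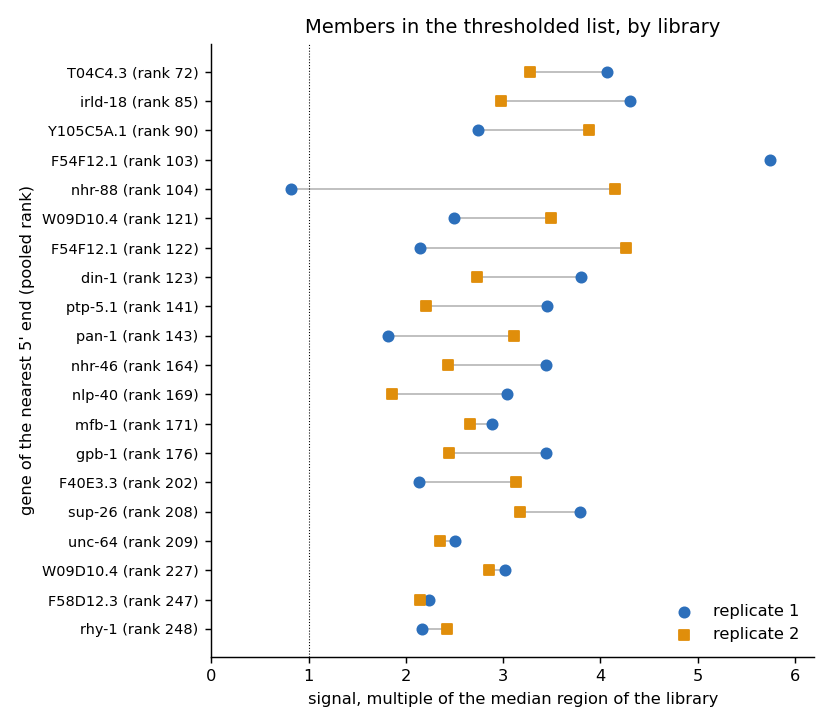
Signal of the 20 distal regions in the thresholded list, as a multiple of the median listed region of each library (x axis), by the gene of the nearest 5' end with the pooled rank (y axis). Circles are replicate 1, squares are replicate 2, grey lines join both, and the dotted line is the median region. The nhr-88 region stood at 0.82 in replicate 1 against 4.15 in replicate 2, and the F54F12.1 region of rank 103 has no value in replicate 2.

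The other 574 regions ran from rank 253 to rank 4986. Over all 594 the pooled signal had a median of 16.4 and a lowest value of 13.99. The last region inside the 5000 had a signal of 13.9812 and the next one 13.9805, so the lower edge is no gap. By position, the region closest to a gene start lay 1001 bp from R05G6.10, and the nearest intergenic region left out lay 997 bp from sys-1.

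Most of the 594 distal regions did not stand out in both libraries. A pooled q-value of 0.05 or less was given to 73 of the 594 regions (12.3%, 9.89 to 15.2), beside 13.9% of all 5000. A replicate 1 region at that q-value overlapped 65 of them (10.9%) beside 13.6% of all 5000, and a replicate 2 region 139 (23.4%) beside 27.2%. Both libraries did so at 28 (4.71%, 3.28 to 6.73), beside 5.94%, and 17 of these 28 were thresholded regions. Neither library did so at 418 (70.4%, 66.6 to 73.9), beside 65.2%. The share with such a q-value was thus near or below that of all 5000, and the share with none was above it.

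Among the 5000 strongest regions of each library, 79 distal regions were overlapped in both lists (13.3%, 10.8 to 16.3), beside 15.4% of all 5000. The corresponding shares were 16.9% (15.25 to 18.8) for the 1760 autosomal regions near 5' ends, 12.9% (10.5 to 15.75) for the 635 autosomal regions in introns and 17.9% (13.5 to 23.4) for the 229 distal intergenic regions of the X chromosome. These intervals overlap that of the distal regions. In neither list were 188 distal regions (31.6%, 28.04 to 35.5), beside 26.1% of all 5000 and 25.2% (23.2 to 27.25) of the regions near 5' ends, and these last intervals do not overlap.

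Signals in the libraries were scarcely related over the 418 distal regions that both listed. Spearman's rho was -0.0016 and Pearson's r of the log2 multiples was 0.10. Over the 3495 of all 5000 regions listed in both, the values were 0.048 and 0.26. Since a high pooled signal was required, a region low in one library had to be higher in the other, which lowers such a correlation, so it is given as a description. There were 22 distal regions at 2 times the median or more in both libraries, and 3 at 3 times or more. Those 3 were the T04C4.3 region and a pair of overlapping rows at sup-26, of ranks 208 and 294, which share their library regions at 3.79 and 3.17 times. A further 79 distal regions were listed in replicate 1 only and 95 in replicate 2 only.

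**Figure D2:**
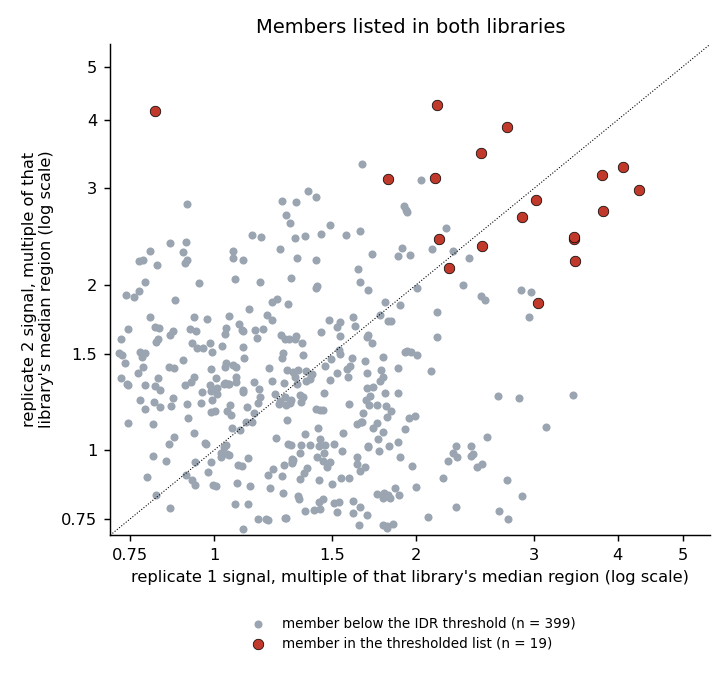
Signal in replicate 1 (x axis) against replicate 2 (y axis) for the 418 distal regions listed in both, as multiples of the median region of each library on log scales. Grey points are below the IDR threshold, red points are the 19 in the thresholded list, and the dotted line marks equal multiples. The grey points form a cloud with no slope, and the red points lie at its upper right apart from the nhr-88 region.

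Distal regions were spread over all autosomes, and their share in gaps between convergent genes was below that of the eligible sequence. Sequence that could have held one, that is autosomal, outside genes and exons and over 1 kb from 5' ends, covered 17048617 bp (20.65% of the autosomes), and held 34.8 distal regions per Mb. The X chromosome, by the same rule, held 43.5 per Mb. There were 103 distal regions on chromosome I, 107 on II, 99 on III, 148 on IV and 137 on V, from 31.8 per Mb on V to 40.1 on I. The 20 thresholded regions were 3 on chromosome I, 4 on II, 7 on III, 5 on IV and 1 on V. The shares of all thresholded peaks by chromosome are not given here, so these small counts do not set the chromosomes apart.

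Gaps between convergent genes, flanked by 3' ends on both sides, held 60 distal regions (10.1%, 7.93 to 12.8) but 15.96% of the eligible sequence, which is 22.05 per Mb. Gaps between genes on the same strand held 335 (36.65 per Mb), and gaps between divergent genes, flanked by 5' ends, held 198 (38.3 per Mb). The 1 thresholded region in a convergent gap lay between nlp-40 and rcor-1, a relative of the CoREST corepressor. Convergent gaps had a like share of the X distal regions (10.5%, 7.14 to 15.1), of the regions near 5' ends (11.4%, 10.02 to 12.99) and of the distal intergenic regions below rank 5000 (11.9%, 10.8 to 12.98). Repeated DNA, where reads map ambiguously, moved with this difference. In 324 bp tiles cut from the eligible sequence, 28.6% held repeated words, against 4.38% (3.004 to 6.34) of distal regions. With repeated regions and tiles left out, convergent gaps held 10.04% (7.83 to 12.8) of 568 distal regions and 12.4% of tiles, and the interval includes the tile share.

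**Figure D3:**
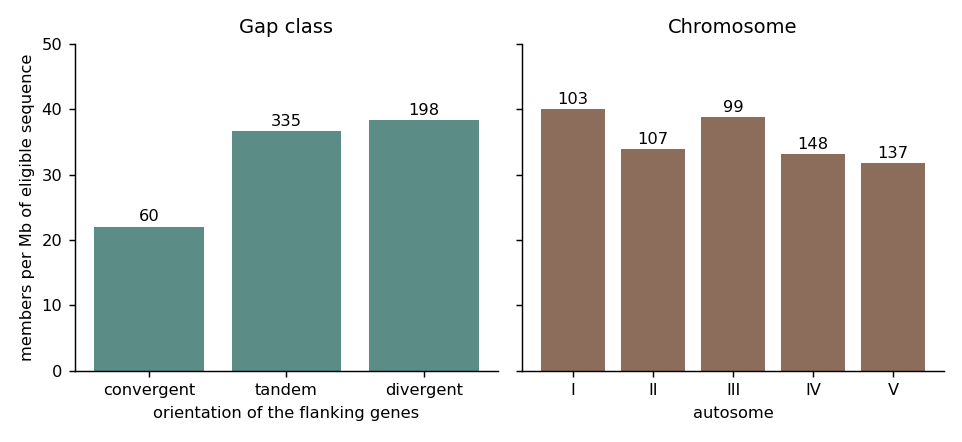
Distal regions per Mb of eligible autosomal sequence (y axis) by the orientation of the flanking protein-coding genes (left) and by chromosome (right). Bars start at 0 and the number over each bar is the count of regions. Convergent gaps had 22.05 per Mb and the other gap classes 36.65 and 38.3.

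With each chromosome cut into 3 equal parts, the central part, which in worms is richer in essential genes and poorer in repeats than the arms, held 234 distal regions (39.4%, 35.5 to 43.4), beside 31.1% of the eligible sequence. That is 44.2 per Mb there and 30.6 per Mb in the rest. The share was 41.5% (39.25 to 43.85) for regions near 5' ends, 36.6% (35.02 to 38.2) for distal intergenic regions below rank 5000 and 32.6% (29.1 to 36.3) for intronic ones, so it is not particular to the strongest distal regions. Without repeated sequence the values were 41.2% (37.2 to 45.3) beside 35.3% of tiles, so the difference became smaller and kept its direction. Of the 20 thresholded regions, 2 lay in the central part and 18 outside it. The central share of all 248 thresholded peaks is not given here, so these counts are a description only.

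The median distance to the nearest protein-coding 5' end was 2644 bp (quartiles 1670 and 4282 bp), against 2788 bp for the tiles (quartiles 1739 and 4652 bp). Up to 10 kb from a gene start there were 34.25 to 37.05 distal regions per Mb, and beyond 10 kb there were 12, at 16.5 per Mb. The summit lay upstream of that 5' end in 446 cases (75.1%, 71.45 to 78.4), beside 67.3% of tiles, and within 500 bp of a 3' end in 84 (14.1%) beside 14.2%.

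Some gaps held several distal regions. Of 6860 eligible gaps, 507 held at least 1 distal region, 68 held 2 or more and 16 held 3 or more. The fullest was the 15313 bp between F54F12.1 and Y39E4B.6 on chromosome III, with 5 distal regions, 2 of them thresholded, and the next, between yif-1 and fipr-13 on chromosome V, held 4. Gaps with 3 included that of W09D10.4 and tat-3, a phospholipid-transporting ATPase, with 2 thresholded regions, and that of snt-1, the synaptotagmin gene, and egl-27. Gaps with a distal region were longer, at a median of 6909 bp, than eligible gaps in general, at 2440 bp, and longer gaps offer more sequence. Per Mb, gaps under 5 kb held 33.1 distal regions, gaps of 5 to 10 kb 35.95, gaps of 10 to 20 kb 38.2 and gaps over 20 kb 26.2, the last with 39 regions, so density did not rise throughout with gap length.

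Distal regions were richer in G and C than the DNA they came from. Their median GC content was 38.3% (quartiles 34.03 and 42.3), against 33.3% for the tiles and 35.2% for the 3464 autosomal distal intergenic regions listed below rank 5000. It was close to the 38.6% of regions near 5' ends and the 37.96% of X distal regions, and below the 39.8% of intronic regions. A GC content of 45% or more was found in 15.5% (12.8 to 18.6), against 5.38% of tiles. GC content is known to affect the yield of sequencing libraries, and the part of that in the signal was not tested.

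The searched word that differed most between distal regions and tiles was GAGAGA. It occurred in 219 of the 594 (36.9%, 33.1 to 40.8), against 16.03% of tiles and 23.7% (22.3 to 25.15) of the distal intergenic regions below rank 5000. Among the 5000 strongest regions, it occurred in 28.5% (26.5 to 30.7) of those near 5' ends, 28.8% (25.4 to 32.5) of those in introns and 25.3% (20.1 to 31.3) of the X distal ones, and none of these 3 intervals overlaps that of the autosomal distal regions. No test was run, since regions of the same libraries are not replicates. At least 5 matches were found in 31 distal regions (5.22%, 3.70 to 7.31), beside 0.811% of tiles, 2.56% of regions near 5' ends and 6.14% of intronic regions.

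Among the distal regions the word went with strength. Of the 20 thresholded regions 16 held it, with an interval of 58.4 to 91.9%, beside 28.2% of all 5000 regions. Its share in all 248 thresholded peaks, and by rank in the other sets, is not given here. Whether the rise is particular to distal regions is therefore not known. With the 594 ranked by pooled signal and cut into 5 nearly equal groups, 62.2% of the strongest group, of ranks 72 to 1072, held it (53.2 to 70.4), then 34.45%, 39.5% and 26.05%, and 22.03% of the weakest group, of ranks 4205 to 4986, did (15.5 to 30.3). The weakest group was thus close to the 23.7% of the regions below rank 5000. Median GC content fell along the same groups from 41.4% to 35.96%, so strength, GC content and the word moved together.

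At a given GC content the word was still more frequent in distal regions than in tiles. Below 35% GC, 19.7% (14.6 to 26.0) of distal regions and 11.2% of tiles held it. From 40 to 45% GC the shares were 45.3% (37.2 to 53.6) and 26.2%, and at 45% or more they were 70.7% (60.7 to 79.0) and 26.1%. From 35 to 40% GC they were 30.8% (24.5 to 37.8) and 21.4%. Regions below rank 5000 lay between. They stood at 15.6% (13.99 to 17.4) below 35% GC, 26.9% (24.3 to 29.7) from 35 to 40% and 36.2% (32.1 to 40.6) from 40 to 45%. Those intervals overlap the ones of the distal regions. At 45% or more the regions below rank 5000 stood at 42.9% (36.6 to 49.3), and that interval does not overlap. X distal regions with a GC content of 45% or more reached 63.4% (48.1 to 76.4), while those from 40 to 45% stood at 17.1% (8.53 to 31.3).

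**Figure D4:**
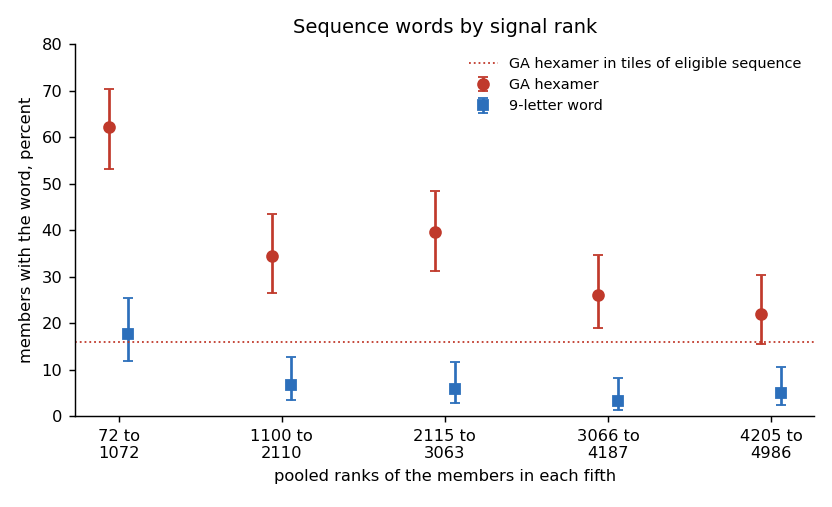
Share of distal regions holding GAGAGA (circles) or GAGACGCAG (squares) in percent (y axis), by 5 groups of pooled rank from strongest to weakest (x axis). Bars are 95% Wilson intervals and the dotted line is the 16.03% of tiles that hold the first word. The strongest group stands at 62.2% and 17.6%, and the weakest at 22.03% and 5.085%.

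The matches gathered at the summits. Within 100 bp on either side of the summit GAGAGA occurred at 3.32 and 3.92 matches per kb, and in the outermost 100 bp bins, 700 to 800 bp away, at 1.01 and 1.20. Regions near 5' ends had 1.90 and 2.12 per kb at the summit, X distal regions 2.10 and 1.22, and the distal intergenic regions below rank 5000 had 1.79 and 1.41. Beyond 300 bp the bins of all 4 sets ranged from 0.393 to 1.43 matches per kb.

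**Figure D5:**
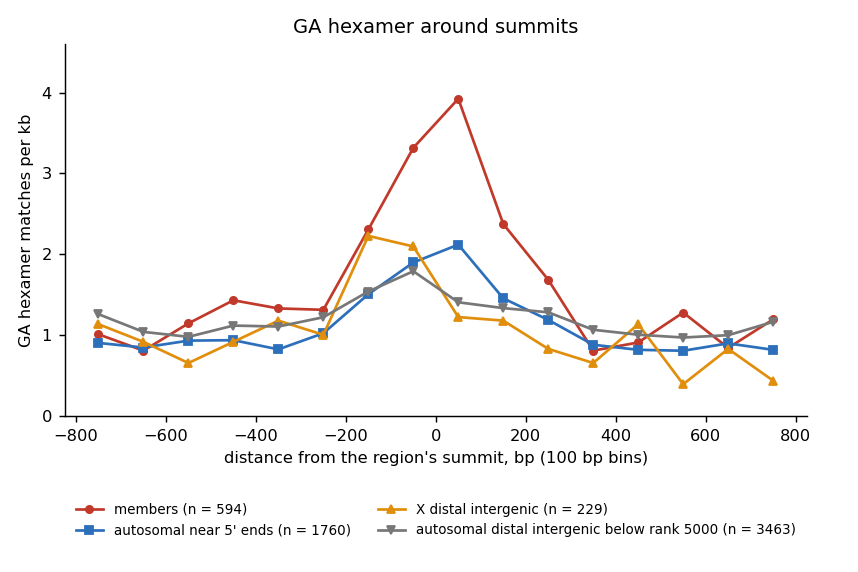
Matches of GAGAGA per kb of sequence (y axis) in 100 bp bins by distance from the summit (x axis), for the 594 distal regions, 1760 autosomal regions near 5' ends, 229 X distal regions and 3463 autosomal distal intergenic regions below rank 5000. Points are the total over all regions of a set. The distal regions peak at 3.92 per kb beside the summit and fall to between 0.808 and 1.43 per kb beyond 300 bp.

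Most of these matches were short. An unbroken alternation of G and A, or of C and T, of 12 bp or more was present in 22 distal regions (3.70%), and of 30 bp or more in 4, those of affl-2, T19H5.4, T04C4.3 and Y48G8AR.8, with 53, 38, 37 and 37 bp. These 4 ranged in signal from 14.25 to 49.9. Among the next longest, the regions near ppk-2, a phosphatidylinositol phosphate kinase, and rho-1 had 19 bp each, and those near W09D10.4 and din-1 had 18 bp each. Of all 2080 possible 6-letter words, counted with their reverse complements, GAGAGA ranked 2 by its excess in distal regions over those below rank 5000, at 13.2 percentage points, after AGAGAA at 13.6. The largest deficit was that of AAAATT, in 60.3% of distal regions and 76.4% of those below.

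A longer word, GAGACGCAG, was picked after the 6-letter words ACGCAG and CGCAGA and the printed sequences had been seen, so its values are descriptive. It occurred in 46 distal regions (7.74%, 5.86 to 10.2), against 1.785% of tiles and 3.78% (3.20 to 4.47) of regions below rank 5000. Regions near 5' ends held it at 6.59% (5.52 to 7.85), and intronic ones at 6.77% (5.07 to 8.997). In the T04C4.3 sequence above GAGACGCAG stands on both strands, and the F54F12.1 region of rank 122 and the affl-2 region carry it as CTGCGTCTC. It was found in 6 of the 20 thresholded regions and in 17.6% of the strongest of the 5 groups (11.8 to 25.5). Of the 46 regions 40 also held GAGAGA, which 36.9% of all distal regions held. In 22 of the 46 (47.8%) the copy of the longer word nearest to the summit lay within 50 bp of it, a stretch that makes up 30.9% of each region. The T04C4.3 region holds several copies, and taking the nearest raises the first share.

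Neither receptor half-site was more frequent in distal regions than in the distal intergenic regions below rank 5000. AGGTCA was found in 65 (10.9%, 8.68 to 13.7), beside 11.2% of the regions below rank 5000 and 8.52% of tiles. AGTTCA was found in 105 (17.7%, 14.8 to 20.95), beside 21.6% and 20.8%. The GATA word TGATAA was found in 25.6% (22.2 to 29.25), beside 26.96% and 25.8%. GGGCGG was present in 11.45% (9.13 to 14.3), beside 6.70% and 5.42%, CACGTG in 9.09% (7.03 to 11.7), beside 6.005% and 4.39%, and TGACGTCA in 2.53% (1.54 to 4.12), beside 2.425% and 1.84%. CACGTG stood at 8.18% near 5' ends, 8.35% in introns and 9.17% in X distal regions. In the same sets GGGCGG stood at 8.98% (7.73 to 10.4), 8.35% (6.44 to 10.8) and 5.68% (3.35 to 9.47). These intervals overlap that of the distal regions. Within ranges of GC content the CACGTG shares were 7.65% (4.61 to 12.4) beside 3.01% of tiles below 35% GC, 12.6% (8.57 to 18.25) beside 6.33% from 35 to 40%, 5.11% (2.497 to 10.2) beside 7.08% from 40 to 45%, and 10.9% (6.01 to 18.9) beside 5.82% above. For GGGCGG the shares were 4.92% (2.61 to 9.08) beside 2.87% of tiles below 35% GC and 8.79% (5.48 to 13.8) beside 7.64% from 35 to 40%. From 40 to 45% GC they were 14.6% (9.65 to 21.5) beside 11.2%, and each of these intervals includes the tile share. At 45% or more GGGCGG was in 23 of 92 regions (17.3 to 34.7%), beside 12.5% of tiles. The regions below rank 5000 stood at 17.75% (13.4 to 23.2) there, and that interval overlaps the one of the distal regions. Unbroken runs of 12 or more A or T were in 1.01% of distal regions and 1.40% of tiles.

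Repeated DNA was rare among distal regions, in 26 of the 594. The strongest with it were those of F40E3.3, with 149 repeated bp, F58D12.3, with 110 bp, and scl-24, with 124 bp. The F40E3.3 region stood at 2.63 ± 0.70 times the median and the scl-24 region at 1.46 ± 0.15 times (SD, n = 2). Apart from overlapping rows and GA repeats, the distal regions of F40E3.3 and K08F11.1 shared 44 words of 36 bp, and those of C07F11.2 and plx-1 shared 2.

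Although no summit lay in an exon, some distal regions overlapped the body of an RNA gene with part of their length. Genes annotated as ncRNA were overlapped by 48 (8.08%, 6.15 to 10.55), against 2.50% of tiles, and lincRNA genes by 7 (1.18%, 0.572 to 2.41), against 0.494%. The strongest ncRNA case was F44E5.14, at the gpb-1 region of rank 176. The lincRNA cases included linc-96 near cyp-14A5 and linc-126 near dgk-4. A single microRNA gene, cel-mir-235, was overlapped. Pseudogenes (3.70%) and piRNA genes (4.04%) were overlapped less often than by tiles, 7.47% and 7.09% of which did so. A tRNA, snoRNA or snRNA gene lay within 1 kb of 7 distal regions (1.18%) and of 1.29% of tiles; the din-1 region was 1 of the 7.

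The nearest genes were sorted into 17 families by the 5' end closest to each summit. A nearest gene need not be a target. Nuclear hormone receptor genes were nearest to 20 distal regions, at 18 genes (3.37%, 2.19 to 5.14), where they were nearest to 2.01% of the eligible sequence and to 2.37% of the regions below rank 5000, and 2 of the 20 were thresholded, those of nhr-88 and nhr-46. The next, that of nhr-34, stood at 1.84 and 1.18 times the median. Developmental regulators of the bHLH, T-box and zinc finger kind had 15 (2.53%, 1.54 to 4.12, beside 1.33% of the eligible sequence and 1.645% below rank 5000), led by ztf-6, tbx-40 and zag-1, a zinc finger homeodomain gene of neurons, at 1.61 and 0.81 times.

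Chemoreceptor genes, a very large family clustered on the arms, stood at the other end. They were nearest to 11 distal regions (1.85%, 1.04 to 3.285) and to 5.94% of the eligible sequence and 4.73% of the regions below rank 5000. Other G protein-coupled receptors had 7 (1.18% beside 2.22%), F-box and BTB or MATH genes 5 (0.842% beside 1.94%), led by fbxa-6, and homeobox genes 3 (0.505% beside 1.11%), those of ceh-45, ceh-13 and lin-11. The strongest chemoreceptor case, srt-13, stood at 1.39 and 1.35 times the median.

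Lipid metabolism genes were nearest to 6 distal regions (1.01%, 0.464 to 2.19, beside 0.422%, and 0.433% of the regions below rank 5000). They were led by elo-3, a fatty acid elongase, at 1.42 and 2.22 times the median, and by fat-2 and fat-1, the desaturases that make polyunsaturated fatty acids, at 1.325 and 1.61 and at 0.79 and 1.32 times. Detoxification enzymes had 4 (0.673% beside 0.492%), with cyp-14A5 at 1.72 and 2.28 times. Ribosomal protein genes had 5 (0.842%, 0.360 to 1.955, beside 0.241%), with rps-27 at 1.88 and 1.41 times, and cuticle collagens 5 (0.842% beside 0.758%), with dpy-10 at 1.31 and 1.39 times. Heat-shock and histone genes had 0 of 594 each, beside 0.201% and 0.131% of the eligible sequence. The interval of 0 to 0.643% includes both shares.

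Genes of the nervous system and the cell surface had similar shares in distal regions and in the eligible sequence. Neuropeptide and insulin genes had 6 (1.01% beside 1.46%), with nlp-40 thresholded at 3.04 and 1.86 times the median. Ion channels had 6 (1.01% beside 1.30%). The strongest of them were listed in a single library each, unc-63, an acetylcholine receptor subunit, at 2.99 times in replicate 2, and glc-4, a glutamate-gated chloride channel, at 2.80 times in replicate 1. Axon guidance and adhesion genes had 8 (1.35% beside 0.973%), with smp-1, a semaphorin, listed in replicate 1 alone at 2.31 times, and C-type lectins had 6 (1.01% beside 0.838%), with clec-181 at 1.88 and 2.255 times.

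The receptor's own gene had distal regions on both sides. Within 25 kb of nhr-76, which offered 20575 bp of eligible sequence, there were 4 distal regions among 10 of the 5000. The strongest, of rank 868, lay 2897 bp upstream of its 5' end with a pooled signal of 20.9, at 1.88 and 1.27 times the median. Those of ranks 1246 and 2023 were nearest to K11H12.9, with signals of 19.35 and 17.3 and multiples of 0.86 and 0.79 and of 1.27 and 1.32. The fourth, of rank 4932, was listed in replicate 1 alone at 0.84 times. The strain carries extra copies of sequence targeting nhr-76, whose bounds are not given in the labels, so signal from the transgene and from the native gene cannot be told apart. No distal region lay within 25 kb of unc-119, where 7107 bp were eligible. The fat-loss list, nhr-76 included, had 4 distal regions at 3 genes (0.673%, 0.262 to 1.72, beside 0.277% of the eligible sequence and 0.433% below rank 5000). Of its other genes, acs-2, an acyl-CoA synthetase, was nearest to a distal region of rank 4970, listed in replicate 1 alone at 1.93 times the median, and ser-6, an octopamine receptor, to that of rank 4981, also listed there alone, at 1.40 times.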

How the data were processed

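The authors deposited narrowPeak lists on ce11 for each of the 2 libraries, for their pooled reads and for the IDR-thresholded peaks. The signal in them is the peak caller's own value, and the deposited −log10 q-values take their name from the narrowPeak column order. The caller, the aligner, the IDR threshold and the read depth are not given in the sources used here. The control was not used here. The ce10 lists were matched to them by chromosome, signal (0.1% tolerance) and summit (20000 bp tolerance).

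Regions were 324 bp wide in the pooled list, 344 bp in replicate 1 and 310 bp in replicate 2, and overlap meant at least 1 bp. Genes came from Ensembl release 115 (19973 protein-coding genes) and sequence from RefSeq WBcel235. Eligible sequence was cut into 52384 tiles of 324 bp. A region was called repeated with 50 bp or more in 36-mers found elsewhere. Words were sought on both strands. Python 3.11.15, pandas 2.3.3 and scipy 1.17.1 were used, and the steps were tested on simulated sequence.

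No test was run, since the libraries form 1 group. The members, gene lists and words were chosen with earlier results of these data known. Genes named are those at the 12 strongest distinct regions and at thresholded regions, up to 3 per gene list or sequence feature, and those within 25 kb of nhr-76 or unc-119. The fullest gaps and the longest runs were named after their values were seen. Alternatives were 2500 or 10000 rows, a distance of 2 kb, merged rows, single libraries and other windows.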

Additional observations from a re-analysis of the deposited data

How the results depend on the processing

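The number of distal regions follows from the rule: it was 291 from the 2500 strongest rows, 1296 from 10000 and 390 with a distance over 2 kb, which also moved the median distance to 3662 bp. With 2500 and 10000 rows, the share in the thresholded list was 6.87% and 1.54%, the share at a q-value of 0.05 or less in both libraries 9.28% and 2.315%, the share among the strongest of both libraries 26.5% and 6.64%, the median GC content 40.1% and 37.0%, and the share with GAGAGA 47.4% and 32.95%. Repeated sequence rose to 6.64% with 10000 rows. With the 2500 strongest of each library, 8.08% were in both. With the rule applied to a single library (without replicate 1 or without replicate 2), the number of regions was 623 or 629, GAGAGA stood at 37.7% or 37.4%, the median GC content ranged from 37.2% to 38.4%, and the convergent share from 7.79% to 11.6%. GAGAGA stood at 37.3% without repeated regions and at 17.7% in tiles without them, a setting chosen after seeing the data, and at 22.2% within the 150 bp around the summit, where less sequence was searched. GAGACGCAG, also added after seeing the data, was in 11.7% of regions with 2500 rows, in 5.63% with 10000 and in 5.39% within the 150 bp. No paired analysis was possible because the libraries form 1 group and no result comes from a test. With depth unknown, no limit of detection can be given.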
